A study of Mus musculus with 11 samples.

Results

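Mitochondrial ribosomal proteins were followed across the aorta of old male mice with and without dietary nitrate. The members were all 76 genes on the array whose name is Mrps or Mrpl with a number and at most 1 letter. By name alone, 29 were counted as small subunit (Mrps) and 47 as large subunit (Mrpl), also where a protein has since been placed elsewhere. The 76 members were measured by 99 of the 55681 probes. RNA of the descending aorta was hybridised to one-color arrays, 1 mouse to an array. The 5 nitrate mice were 20-month-old C57BL/6 males that drank 1 g/L sodium nitrate for 8 weeks. The 6 control mice were C57BL/6 males of the same age without nitrate, which the labels describe as arrays of an earlier data set analysed again. The labels name no sodium chloride for them, whereas the methods of the study give it as the control drink. The methods of the study give 6 mice a group, so 1 of the 6 nitrate mice is not used here.

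The mitochondrial ribosome translates the few messages of the mitochondrial genome, all of which code for inner membrane proteins of the respiratory chain and the ATP synthase. Its RNA comes from mitochondrial DNA, while its proteins are encoded in the nucleus, made in the cytosol and imported. The small subunit reads the message, and the large subunit joins the amino acids and feeds the chain into the inner membrane. Many of the proteins have a counterpart in bacterial ribosomes, and others are found in mitochondria alone.

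The probes behind the results were short DNA strands of 60 bases. Of the probes with the lowest P values, 4 are shown because their letters tell which stretch of the message was read, with positions in build mm9 from the array annotation. The Mrpl30 probe lay at chr1:37954938-37954997 and the Mrpl19 probe at chr6:81911970-81912029, each unbroken in the genome. The Mrps11 probe spanned chr7:85933622-85935544 and the second Mrps18b probe chr17:36051313-36051461. These spans are longer than the probes, so both probes cross a junction of exons. The Mrpl30 and Mrps11 probes lay on the plus strand and the other two on the minus strand.
Mrpl30: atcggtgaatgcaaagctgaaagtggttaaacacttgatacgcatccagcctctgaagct
Mrpl19: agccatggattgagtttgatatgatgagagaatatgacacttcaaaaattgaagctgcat
Mrps11: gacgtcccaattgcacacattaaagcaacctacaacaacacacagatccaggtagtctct
Mrps18b second probe: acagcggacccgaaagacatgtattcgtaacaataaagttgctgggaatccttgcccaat

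A probe counted as detected where the scanner software marked it found and well above background on 5 or more arrays of 1 group. Of the 76 members, 73 were detected, 27 of the small and 46 of the large subunit. Mrpl21 was well above background on 0 of 11 arrays. Mrps15 and Mrps31 were well above background on 11 arrays but were marked as found on 6 and 8 of them. For Mrps15, a fit over all probes gave a difference of -0.24 on the log2 scale (exact permutation P = 0.0195), with a mean of 10.56 in nitrate and 10.80 in control. Where a gene had several detected probes, the brightest stood for it.

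Across the arrays, 1 control mouse stood above the others in nearly all members. The array of control 1 held the highest value of 66 of the 73 genes, 27 of 27 in the small and 39 of 46 in the large subunit. Median deviations of the 73 genes from their own means were 0.37 in control 1 and between -0.07 and 0.05 in the other 5 controls. In the nitrate mice the medians were -0.13, -0.18, -0.12, -0.00 and 0.10 for nitrate 1 to nitrate 5. Nitrate 1, nitrate 2 and nitrate 3 therefore lay under every control, while nitrate 4 and nitrate 5 lay within the range of the controls.

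**Figure D1:**
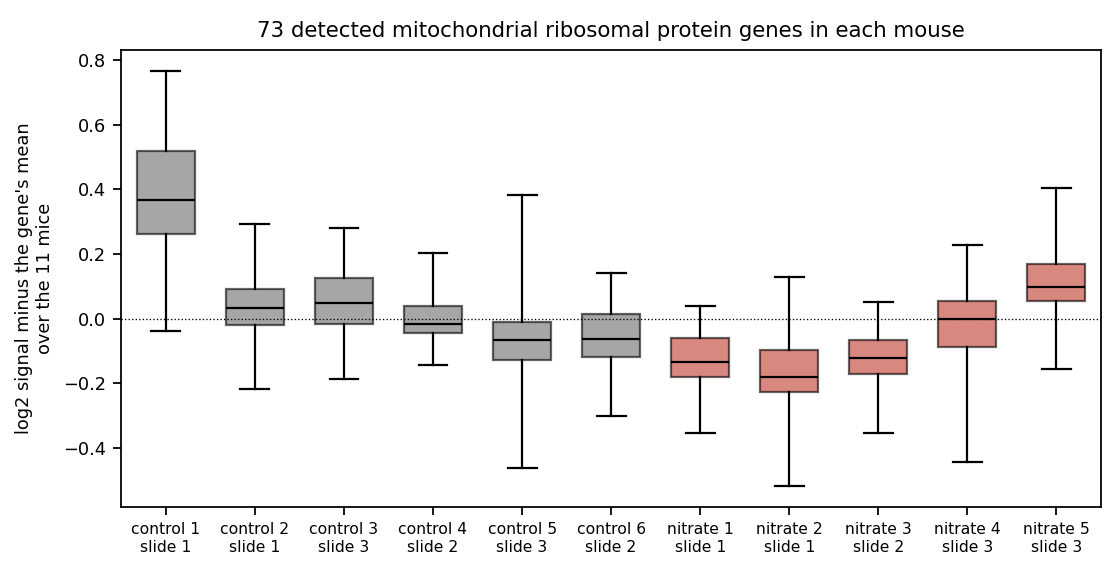
Deviation of each of the 73 detected genes from its mean over the 11 mice, on the log2 scale, for each mouse (x axis, with its slide); boxes span the genes from the lower to the upper quartile, lines in them are medians, and whiskers reach the lowest and highest gene. Control 1 has a median of 0.37, and the medians of nitrate 1 to nitrate 3 lie between -0.18 and -0.12.

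The array of control 1 also stood apart in genes of other cell types. Its median deviation was 0.77 over 6 brown adipocyte markers and -0.45 over 6 smooth muscle markers, the highest and the lowest of the 11 mice. Over 7 cardiac muscle markers it was 3.47, and nitrate 4 reached 4.05. Over 10 adipocyte markers control 1 (0.41) and control 3 (0.39) were alike, and the other 4 controls lay between -0.06 and 0.11. Nitrate 1 to 5 had -0.46, -0.17, -0.11, 0.00 and -0.13 over these markers, so nitrate 5, the highest nitrate mouse over the members, lay under nitrate 3 and nitrate 4 here. The nitrate mice with the higher member values, nitrate 4 and nitrate 5, had brown adipocyte medians of 0.35 and 0.39. The 3 others had -0.34, -0.79 and -0.28. Controls 2 to 6 had brown adipocyte medians of 0.00, -0.25, 0.09, -0.01 and -0.08. Control 3, the lowest of them, was the second highest control over the members, so the order was not the same in every mouse. All 6 smooth muscle markers, the defining genes of the vessel wall, were detected, and so were the 6 brown adipocyte markers, among them Ucp1. In whole tissue, fewer cells of a type and less RNA per cell cannot be told apart.

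In nitrate against control, 67 of the 73 members (91.8%) had a lower mean, whereas 46.2% of all 23632 detected probes did. Few of these differences exceeded the spread between mice. At an unadjusted P under 0.05, the limit of the study's methods, 6 members were lower and 0 were higher (limma). That is 8.22% of the members, beside a background of 6.66% of all probes lower, 7.71% higher and 14.4% in either direction, so the share of members called was close to the background. That reading rests on single mice, as 12 members (16.4%) were lower at that limit without control 5 and 14 (19.2%) without nitrate 5, beside 7.06% of all probes lower in both fits. After Benjamini-Hochberg adjustment over all probes 0 members passed, beside a background of 0.0127% of all probes, and the lowest adjusted P of a member was 0.192 (limma). With the added fold limit of 1.2, 4 members passed, beside a background of 9.00% in either direction. The 67 members without a call lay between -0.26 and 0.08. Adipocyte markers were lower as well, 9 of 10 with a median of -0.38, and 5 had a P under 0.05. Without control 1 the same counts held with a median of -0.28. Of the brown adipocyte markers 3 of 6 were lower, 1 with a P under 0.05. Without control 1 there were again 3 of 6, with 1 called lower and 1 called higher. Of the cardiac muscle markers 6 of 7 were higher with a median of 0.80 and 0 had a P under 0.05 (limma, unadjusted), whereas without control 1 all 7 were higher with a median of 1.56 and 2 had one. Of the smooth muscle markers 5 of 6 were higher with a median of 0.11, 1 with a P under 0.05, and without control 1 the count was 4 of 6 with a median of 0.05, 1 called higher and 1 called lower.

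The median difference was -0.14 in the small subunit and -0.10 in the large subunit, beside 0.01 over all probes. Of the small subunit genes, 25 of 27 were lower and 2 had a P under 0.05. Of the large subunit genes, 42 of 46 were lower and 4 had a P under 0.05. Without control 1, 58 of the 73 genes were lower, beside 47.1% of all probes, and the medians were -0.07 and -0.06. In that fit 4 members were lower at P under 0.05, beside a background of 5.76%, and 1 was higher, beside a background of 6.28% (12.0% in either direction).

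**Figure D2:**
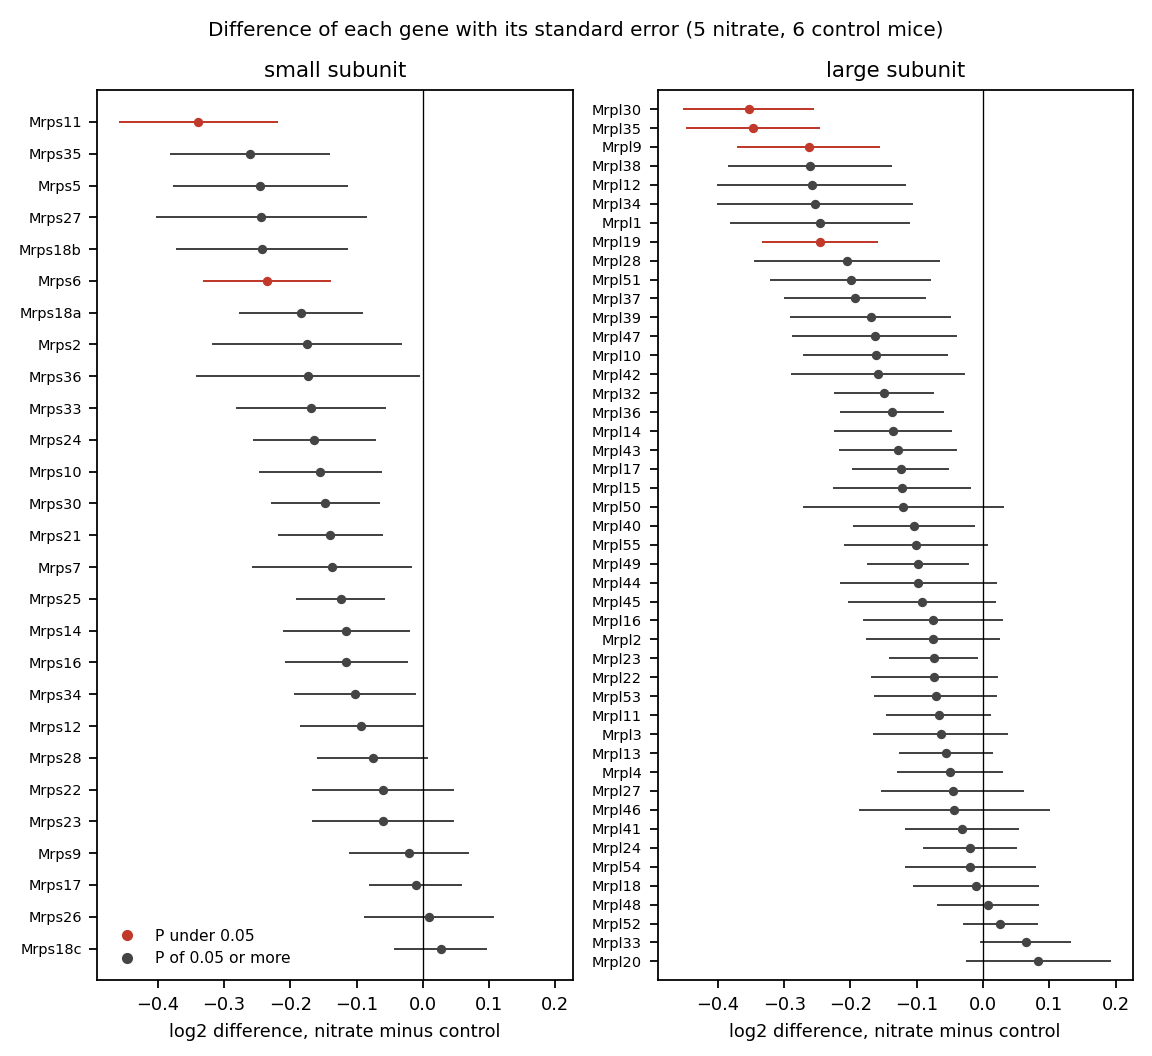
Difference in log2 signal (nitrate minus control, x axis) for each detected gene of the small (left) and large (right) subunit, with its standard error as a bar; red points have an unadjusted P under 0.05. Most points lie left of 0, and the 6 red points lie between -0.35 and -0.23.

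Slides held both groups, so the comparison could be made within each. On slide 1, with nitrate 1 and 2 and controls 1 and 2, 72 of 73 genes were lower with a median of -0.34. Against control 2 alone, a comparison added after the values were seen, 67 of 73 were lower and the median was -0.17. On slide 2, with nitrate 3 and controls 4 and 6, 57 were lower with a median of -0.09. On slide 3, with nitrate 4 and 5 and controls 3 and 5, 18 were lower and the median was 0.06. Of all probes 44.2%, 48.9% and 45.9% were lower on slides 1, 2 and 3. The direction over the members thus turned on slide 3, which was also the slide of the second scan. All controls lay in column 3 of their slide and no nitrate array did, so that position and diet cannot be told apart.

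The member with the lowest P was Mrpl30, a large subunit protein with a bacterial counterpart. Its log2 signals in nitrate 1 to 5 were 11.83, 11.72, 11.95, 12.00 and 11.95. The controls ranged from 12.07 to 12.62 with a median of 12.17. Every nitrate mouse lay under every control. The difference was -0.35 (SE 0.10, adjusted P = 0.192, limma), and a two-sided exact permutation test over the mice gave P = 0.0043.

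Mrpl35, another large subunit protein with a bacterial counterpart, had log2 signals of 7.17, 6.74, 7.02, 7.14 and 7.26 in the nitrate mice. Its controls ranged from 7.29 to 7.64 with a median of 7.38. The groups did not overlap, and control 5 rather than control 1 was the highest. The difference was -0.35 (SE 0.10), and the exact permutation P was 0.00216, the smallest that 462 divisions of the mice allow.

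Mrps11 sits on the platform of the small subunit. Its log2 signals in nitrate 1 to 5 were 8.42, 8.40, 8.26, 8.02 and 8.31, and its controls ranged from 8.44 to 9.10 with a median of 8.54. Again the groups did not overlap, although nitrate 1 and control 4 lay next to each other and control 1 stood far above the other controls. The difference was -0.34 (SE 0.12, exact permutation P = 0.0043). Mrpl30, Mrpl35 and Mrps11 were the 3 members whose groups did not overlap, 4.11% of the members beside a background of 2.75% in either direction and 1.14% lower in nitrate.

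Mrpl19, Mrpl9 and Mrps6 were the other members with a P under 0.05, and all have bacterial counterparts. Mrpl19 had 8.00, 7.75, 7.80, 8.02 and 7.93 in the nitrate mice against controls from 8.01 to 8.40 with a median of 8.10, so that only nitrate 4 reached into the controls. Its difference was -0.25 (SE 0.09, exact permutation P = 0.0108). Mrpl9 had 9.75, 9.56, 9.83, 9.71 and 9.91 against controls from 9.84 to 10.36 with a median of 9.93, and its difference was -0.26 (SE 0.11, exact permutation P = 0.0390). Here nitrate 5 lay among the controls. Mrps6 had 11.36, 11.19, 11.10, 11.33 and 11.42 against controls from 11.29 to 11.81 with a median of 11.51. In Mrps6 the lowest control lay under 3 of the nitrate mice, and the difference was -0.23 (SE 0.10, exact permutation P = 0.0346).

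**Figure D3:**
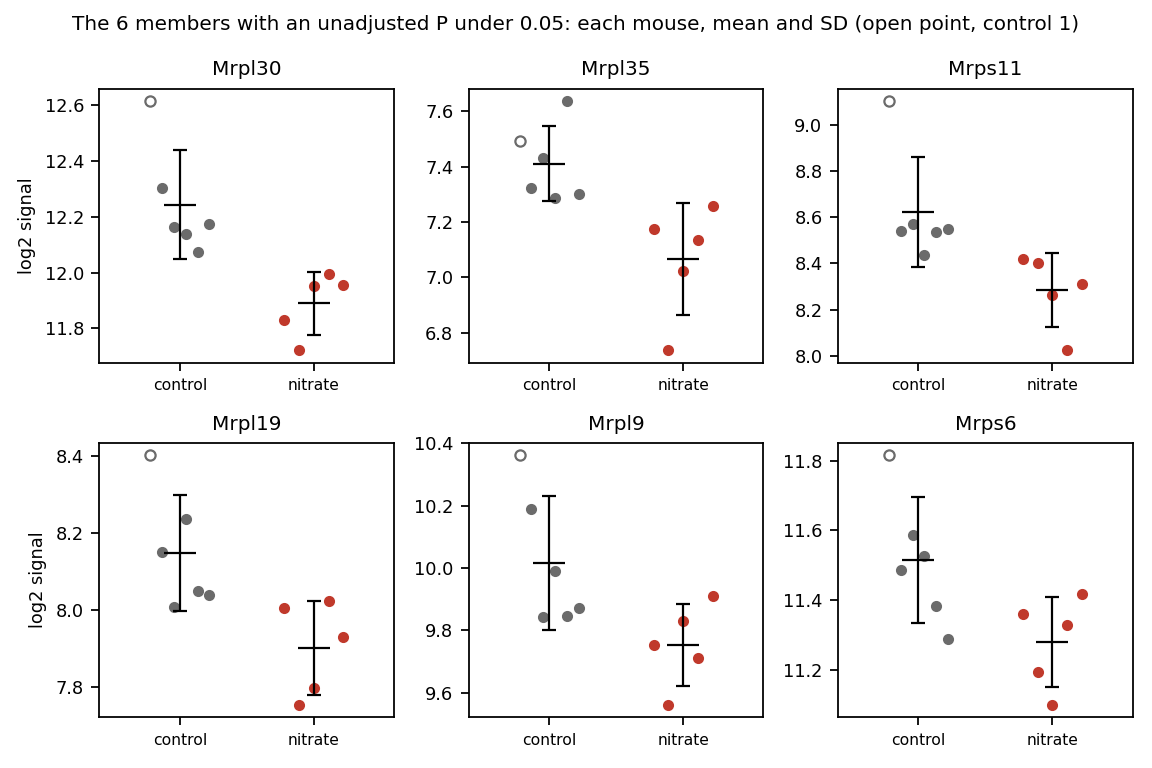
Log2 signal (y axis, own scale in each panel) of the 6 members with an unadjusted P under 0.05 in each of 6 control and 5 nitrate mice, with the mean and SD of the group; open points are control 1. In Mrpl30, Mrpl35 and Mrps11 no nitrate mouse reaches the lowest control.

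Without control 1, Mrpl30 (-0.28), Mrpl35 (-0.33), Mrps11 (-0.24) and Mrpl19 (-0.20) stayed under an unadjusted P of 0.05 in limma's moderated test. Mrpl9 (-0.19) and Mrps6 (-0.17) did not. The lowest adjusted P was then 0.198 (limma), that of Mrpl30. With the mean of the adipocyte markers as a covariate, 1 of the 73 members (1.37%) had a P under 0.05 and was lower, beside a background of 3.96% of all probes lower in that fit. The medians were then 0.04 in the small and 0.05 in the large subunit. In that fit the direction of both medians turned. The adipocyte markers were themselves lower in nitrate, 9 of 10 with a median of -0.38, so the fit cannot tell them apart from diet. No such fit was made with the brown adipocyte or cardiac markers. The part of any of these markers in the difference was not tested.

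A further 4 members, named here after their values were seen, had an exact permutation P under 0.05 and a limma P above it. They were Mrps35 (-0.26), Mrpl38 (-0.26), Mrpl32 (-0.15) and Mrps25 (-0.12). In all, 10 of the 73 members (13.7%) had a permutation P under 0.05, all of them lower. The background was 6.31% of all probes lower and 14.7% in either direction. Mrps35 lay between 9.47 and 9.72 in the nitrate mice and between 9.63 and 10.33 in the controls, and nitrate 5 was the mouse that overlapped.

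The largest positive differences were small and none passed the test with all 11 mice. Mrpl20, needed in bacteria for the first steps of large subunit assembly, had log2 signals of 13.02, 13.04, 12.99, 13.16 and 13.30 in the nitrate mice. Its controls ranged from 12.84 to 13.46 with a median of 12.96, and control 1 was the highest of all 11 mice. The difference was 0.08 (SE 0.11, exact permutation P = 0.489). Without control 1 it was 0.17 (SE 0.07, adjusted P = 0.382, limma) with an unadjusted P under 0.05, so that call rests on leaving out 1 mouse. Mrpl33 differed by 0.06 (SE 0.07) and Mrps18c by 0.03 (SE 0.07).

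The 3 Mrps18 genes encode paralogs of a single bacterial protein. Mrps18b and Mrps18c belong to the small subunit, and the protein of Mrps18a has been placed in the large subunit. Mrps18a had 10.98, 10.88, 10.90, 11.09 and 11.19 in the nitrate mice against controls from 10.99 to 11.50 with a median of 11.17. The difference was -0.18 (SE 0.09, exact permutation P = 0.0628), and the groups overlapped. Mrps18b had 11.69, 11.66, 11.74, 12.10 and 12.04 against controls from 11.88 to 12.50, with a difference of -0.24 (SE 0.13, exact permutation P = 0.110). Mrps18c had 11.06, 11.11, 11.17, 11.16 and 11.28 against controls from 11.03 to 11.29, a nearly equal range. None of the 3 brightest probes passed the test.

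Mrps18b had a second probe, shown above, with 8.19, 8.18, 8.23, 8.22 and 8.49 in the nitrate mice against controls from 8.43 to 9.17 with a median of 8.54. Its difference was -0.36 (SE 0.13, exact permutation P = 0.0108). Nitrate 5 alone lay within the controls. Mrps7, a protein of the head of the small subunit, likewise had a second probe that was lower (-0.28, SE 0.09, exact permutation P = 0.0065) while its brightest probe differed by -0.14 (SE 0.12, exact permutation P = 0.327). Both second probes were named after their values were seen.

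Of the 20 genes with 2 detected probes, 15 had the same sign in both. The exceptions were Mrpl39, Mrpl41, Mrps17, Mrps25 and Mrps26. Mrpl39 differed by -0.17 (SE 0.12) on its brightest probe and by 0.34 (SE 0.22) on the other. In limma's moderated test neither probe of these 5 genes had an unadjusted P under 0.05. The brightest probe of Mrps25 is among the 4 members with a permutation P under that limit.

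Proteins with known tasks beyond the core showed differences within the spread between mice. Mrpl12 is part of the stalk that recruits translation factors and also binds the mitochondrial RNA polymerase. It had 12.16, 12.01, 12.06, 12.42 and 12.55 in the nitrate mice against controls from 12.28 to 13.00 with a median of 12.42. Nitrate 1 to 3 lay under every control and nitrate 4 and 5 did not, and the difference was -0.26 (SE 0.14, exact permutation P = 0.121). Mrps12, which lines the decoding site, differed by -0.09 (SE 0.09). Mrpl41 differed by -0.03 (SE 0.09), and Mrpl44, whose fold is that of a ribonuclease, by -0.10 (SE 0.12).

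Mrps30 and Mrps36 carry names that later work has overtaken. The protein of Mrps30 has been placed in the large subunit, and that of Mrps36 in the 2-oxoglutarate dehydrogenase complex. Mrps30 differed by -0.15 (SE 0.08, exact permutation P = 0.0823). Mrps36 ranged from 11.65 to 12.55 in the nitrate mice and from 11.98 to 12.76 in the controls, with a difference of -0.17 (SE 0.17).

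The members were also grouped by place and origin, within the subunit their name gives, with groups written from textbook knowledge after the values were known. All 3 stalk proteins, Mrpl10, Mrpl11 and Mrpl12, were lower, between -0.26 and -0.07. All 6 proteins at the rim of the exit tunnel were lower, between -0.16 and -0.02. Among proteins with a bacterial counterpart, 16 of 17 detected in the small and 27 of 29 in the large subunit were lower, with medians of -0.14 and -0.12. Among proteins particular to mitochondria, 9 of 10 and 15 of 17 were lower, with medians of -0.14 and -0.10. Over all members 67 of 73 (91.8%) were lower, so these counts tell little about any single group. The 6 members with a P under 0.05 all had bacterial counterparts, and that split was not tested.

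The mitochondrial ribosome works with other factors, which were read from lists of named genes. Of 7 ribosomal proteins with other names, such as Dap3, 6 were lower with a median of -0.05 and 0 had a P under 0.05 (limma, unadjusted). Of 15 detected genes of assembly and ribosomal RNA modification, 9 were lower, 3 of them with a P under 0.05, and 1 was higher with a P under 0.05. These 4 are 26.7% of the list, beside the background of 14.4% in either direction, and without control 1 the list again had 3 called lower and 1 called higher, beside 12.0%. With all 11 mice, those called lower were Rnmtl1, a methyltransferase of the large ribosomal RNA (-0.41, SE 0.10, adjusted P = 0.142, limma), Eral1, a chaperone of the small ribosomal RNA (-0.26, SE 0.10), and Ddx28, a helicase of large subunit assembly (-0.16, SE 0.06). Rpusd4, a pseudouridine synthase, was higher (0.17, SE 0.07).

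Of 12 translation factors, 10 were lower and 2 (16.7%) had a P under 0.05, beside the background of 6.66% lower. They were Tufm, the elongation factor that carries aminoacyl-tRNA to the ribosome (-0.28, SE 0.12, adjusted P = 0.327, limma), and Gfm2, which splits the ribosome after termination (-0.30, SE 0.13, adjusted P = 0.320, limma). As a mean over its probes, Gfm2 was 0.02, in the other direction. With each mouse left out in turn, limma's unadjusted P was under 0.05 in 4 of 11 fits for Tufm and in 5 for Gfm2. Without control 1, 8 of the 12 were lower and 0 had an unadjusted P under 0.05 (limma), beside the background of 5.76% lower in that fit. Of 15 aminoacyl-tRNA synthetases, 11 were lower with a median of -0.09 and 0 had a P under 0.05 (limma, unadjusted). Of 13 genes of mitochondrial transcription and its regulators, 8 were lower and 2 (15.4%) had a P under 0.05, beside the background of 14.4% in either direction. Of these 2, Ppargc1b, a coactivator of mitochondrial genes, was lower (-0.26, SE 0.12, adjusted P = 0.334, limma), and Gabpb1, a subunit of the GA-binding protein, was higher (0.17, SE 0.06, adjusted P = 0.274, limma). With each mouse left out in turn, Ppargc1b had a P under 0.05 in 3 of 11 fits and was -0.16 without nitrate 2, and Gabpb1 had one in 11 of 11.

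The nuclear subunits of respiratory complex I, into which several products of the mitochondrial ribosome are built, were lower in 37 of 37 genes with a median of -0.22. Of these, 13 (35.1%) had a P under 0.05, beside the background of 6.66% lower. The largest difference was that of Ndufa10 (-0.47, SE 0.13, adjusted P = 0.194, limma). Without control 1, 36 of the 37 were lower with a median of -0.14, and 7 (18.9%) had a P under 0.05, beside the background of 5.76% lower in that fit. The proteins of the cytosolic ribosome lay on the other side, with 65 of 76 detected genes higher and a median of 0.06. Of these, 5 were higher with a P under 0.05, among them Rpl7a (0.20, SE 0.08), which is 6.58% of the list beside the background of 7.71% higher. Without control 1, 55 of 76 were higher and 2 (2.63%) had a P under 0.05, beside the background of 6.28% higher. The contrast of the lists was not tested.

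**Figure D4:**
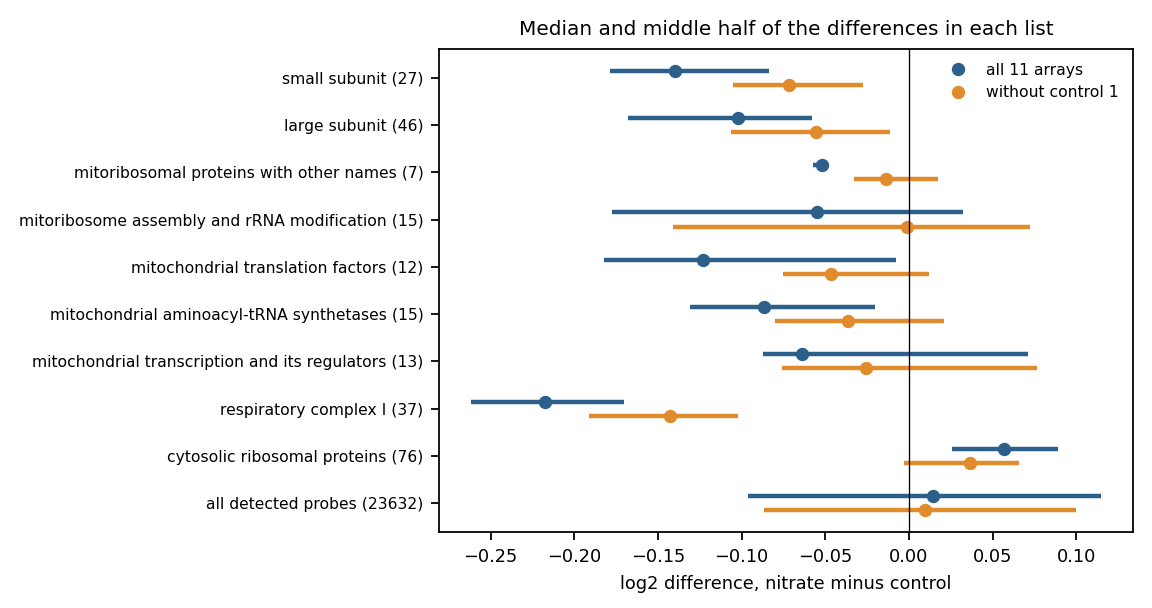
Median (point) and range between the quartiles (bar) of the log2 differences (nitrate minus control, x axis) in each gene list, with the number of detected genes in brackets, over all 11 mice and without control 1. The medians of both subunits move from -0.14 and -0.10 to -0.07 and -0.06 without that mouse, and complex I moves from -0.22 to -0.14.

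Mouse by mouse, complex I had its highest median in control 1 (0.48) and medians of -0.28, -0.35 and -0.20 in nitrate 1 to 3. Nitrate 4 and nitrate 5 had 0.03 and 0.15. The members had their highest, their 3 lowest and their second highest medians in the same mice. The cytosolic ribosomal proteins had their lowest median, -0.14, in control 1. The smooth muscle markers too were lowest in that mouse.

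**Figure D5:**
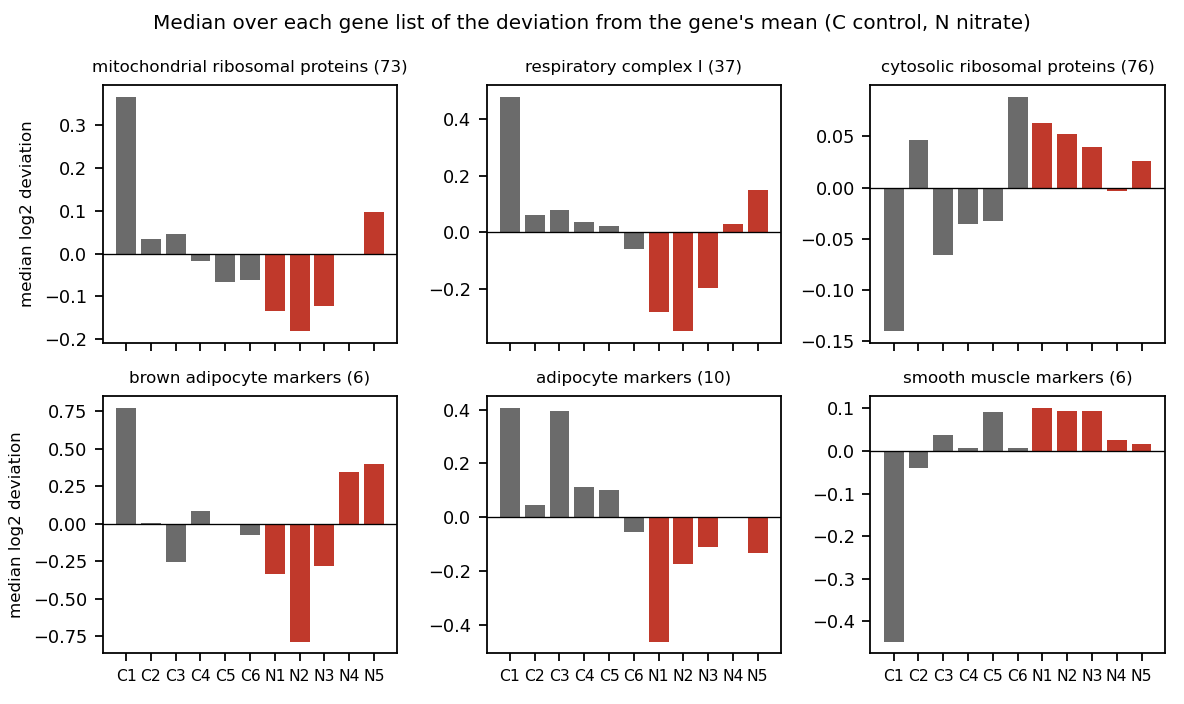
Median over each gene list of the log2 deviation from the gene's mean (y axis, own scale in each panel) in controls 1 to 6 (C, grey) and nitrate 1 to 5 (N, red), with the number of genes in brackets. Control 1 is highest over the members (0.37), complex I (0.48) and the brown adipocyte markers (0.77), and lowest over the smooth muscle markers (-0.45).

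Promoters were read because many nuclear genes of mitochondria share short motifs near their start. RefSeq windows of build GRCm38.p6, from 250 bases before to 50 bases after the start, matched 67 of the 76 members. In all, 9 letter strings were searched on both strands. Longer forms of the NRF1 and YY1 motifs, also looked at, are left out. CCGGAAG, the core bound by ETS factors such as the GA-binding protein, was held by 24 members (35.8%) beside 9.9% of 27025 genes. AAGATGGC, a YY1 motif, was held by 12 members (17.9% beside 3.2%), and GCATGCGC, part of the motif of NRF1, by 8 members (11.9% beside 3.0%). GGGCGG, the SP1 box, was held by 49.3% beside 38.2%. Of the 34 complex I genes with a window, 4 held CCGGAAG (11.8%), 7 AAGATGGC (20.6%), 3 GCATGCGC (8.8%) and 15 GGGCGG (44.1%). The difference between the lists was not tested.

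CCGGAAGTG, which contains the ETS core, was held by 4 members (6.0% beside 2.2%). TATAAA was held by 7.5% of the members beside 15.7% of all genes. CACGTG (7.5% beside 8.1%), CCAAT (40.3% beside 41.1%) and TGACGTCA (3.0% beside 2.0%) were held at shares near those of all genes. The 23 detected members with CCGGAAG had a median difference of -0.07, and the 41 matched and detected members without it had -0.14. For the YY1 motif the order was the other way, with -0.16 in the 12 members that held it and -0.11 in the 52 others. For the NRF1 motif it was -0.16 in 8 members and -0.12 in 56 others. These differences were not tested. A match is a run of letters, not a measured binding site.

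The 150 bases before the start are shown for a member with each of the 3 motifs, chosen after values and sequences were seen. Mrpl9 (chr3:94443186-94443335, plus strand) holds GCATGCGC on both strands as 1 palindrome, Mrps11 (chr7:78782981-78783130, plus strand) holds the YY1 motif on the other strand, and Mrps18a (chr17:46110854-46111003, plus strand) holds the ETS core. Capitals mark these motifs. Mrpl9 and Mrps11 were among the 6 members with a P under 0.05, and Mrps18a was not.
Mrpl9: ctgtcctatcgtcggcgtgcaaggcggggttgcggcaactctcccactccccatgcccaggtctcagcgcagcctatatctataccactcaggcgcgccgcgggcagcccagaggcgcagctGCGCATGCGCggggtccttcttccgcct
Mrps11: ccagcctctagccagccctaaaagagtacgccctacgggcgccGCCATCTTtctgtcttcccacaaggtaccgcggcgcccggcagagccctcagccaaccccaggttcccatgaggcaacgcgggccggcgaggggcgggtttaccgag
Mrps18a: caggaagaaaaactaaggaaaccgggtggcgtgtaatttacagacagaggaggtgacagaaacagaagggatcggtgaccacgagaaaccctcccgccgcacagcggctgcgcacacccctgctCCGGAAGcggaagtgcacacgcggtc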

How the data were processed

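RNA of the aorta was measured on 11 one-color arrays, 5 nitrate and 6 control. For every array, intensities of the spots and their quality flags were deposited by the authors as Feature Extraction 10.7.1.1 wrote them, background-subtracted and not normalized between arrays. They also deposited a table of log2 values, checked here against each array and found to be quantile normalized with each probe's median over the arrays taken off. All of its columns were matched to a sample.

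Processed signals under 1 were set to 1 before log2 was taken. After control and outlier-flagged spots had been dropped, repeat spots were averaged and quantile normalization followed. Across arrays, the 75th percentile ranged from 212.8 to 288.7, and the number of arrays limits the precision. The detection rule left 23632 probes. Of several ways of combining the flags of repeat spots, the one that gave the probe count of an earlier analysis of these data was used.

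Groups were compared with lmFit and eBayes (R 4.3.3, limma 3.58.1) over all probes, at an unadjusted P under 0.05 and a fold above 1.2 as in the methods of the study, and after Benjamini-Hochberg adjustment. Two-sided exact permutation tests used the 462 divisions of the mice. Limma's P values weigh a difference against the spread between single mice, moderated over all probes. Permutation P values rank the difference among those divisions. Data were also simulated, with the noise of each probe drawn on its own and no difference between mice shared by many genes. There, 60% of changes of 0.25 and 90% of changes of 0.5 on the log2 scale had a P under 0.05. So had 5.07% of unchanged probes. As the real arrays share such differences, as in control 1, these shares check the fit and are no background for the real counts.

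The members and gene lists were chosen with earlier results of these data known. Members with a P under 0.05, the 3 largest rises and falls, members not detected, members whose probes differed, and a fixed set (Mrpl12, Mrps12, the Mrps18 genes, Mrps30, Mrps36, Mrpl41, Mrpl44) were named, and so were genes of related lists with a P under 0.05 as examples. Marker lists of endothelial cells and macrophages had median differences of 0.04 and 0.12, with 1 of 6 and 0 of 5 genes under that P. Alternatives were other scalings, background corrections, offsets and filters, slide and replicate blocks, an adipocyte covariate and leaving out each mouse. The related lists without control 1 were added after seeing the data.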

Additional observations from a re-analysis of the deposited data

Results flagged for a closer look

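In the 6 controls, the array of control 1 lay far above the other 5 in several results. The gap to the nearest mouse, as a share of the whole range, was 0.8002 for Mrps11, 0.7497 for Mrpl20, 0.7347 for Mrpl33, 0.7436 for the second probe of Mrps18b and 0.6644 for Mrps36. Among related genes it was 0.7049 for Eral1, 0.6407 for Rnmtl1 and 0.6621 for Tufm. The median over the small subunit had a gap of 0.7355 and that over the large subunit 0.7281. In the nitrate mice, nitrate 5 lay above the other 4 in the second probe of Mrps18b with a gap of 0.8289. These 11 were among 74 groups examined, and chance gives about 5% of groups such a gap. Over all 73 members, 20 control groups and 4 nitrate groups had one, and in all 20 control groups the mouse was control 1.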

How the results depend on the processing

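The median differences of both subunits stayed below 0 under other scalings, background corrections, filters, offsets, probe means, blocks and with any single mouse left out. They were 0.0417 (small) and 0.0495 (large) with the adipocyte covariate, 0.0372 and 0.0679 within slide 3, and -0.37 and -0.33 within slide 1. Leaving out 1 mouse gave -0.19 to -0.07 and -0.16 to -0.06. The count of members lower with P under 0.05 was 6, ranged from 4 to 14 with a mouse left out, and was 12 without control 5, 14 without nitrate 5 and 1 with the covariate. Over all probes the share lower at that limit was 4.57% to 7.30% with a mouse left out, 7.06% without control 5 and without nitrate 5, and 3.96% with the covariate, beside 16.4%, 19.2% and 1.37% of the members. The count of members higher ranged from 0 to 1, the 1 being Mrpl20 without control 1. With the fold limit the count of 4 was 2 after normexp, 1 with the covariate and 2 to 9 with a mouse left out. It was 2 without control 1, 9 without control 5, 8 without control 6 and 8 without nitrate 5. Of all 23632 probes, 2128 passed that limit with all 11 mice and 1596 without control 1. For the other fits no such count was made, so their counts of members cannot be set against a background. The cause of these changes was not tested. The replicate numbers did not pair the mice, with correlations of same-numbered deviations between -0.14 and 0.18. With the replicate block 6 members (8.22%) were lower at P under 0.05, beside 6.53% of all probes, and 6 passed the fold limit. Control 6 was alone in its block and so added nothing to that fit. The medians of -0.16 and -0.13 there equal those without control 6.

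With each mouse left out in turn, P stayed under 0.05 in 11 of 11 fits for Mrpl30, Mrpl35, Mrps11 and Mrpl19 and in 6 for Mrpl9 and Mrps6. It did so in 11 for Rnmtl1 and Gabpb1, 10 for Ddx28, 9 for Eral1, 6 for Rpusd4, 5 for Gfm2, 4 for Tufm and 3 for Ppargc1b. Of the named results, Mrpl41 (0.0497), Mrpl39 (0.0862) and Gfm2 (0.0185) changed sign as probe means. With the covariate Mrpl41 (0.0494), Mrpl39 (0.0495), Mrps18b (0.0825), Mrps7 (0.17), Mrps12 (0.0417), Mrps36 (0.0288) and Mrpl44 (0.11) did so. Within slides, signs were followed only for named results with a P under 0.05, and Ppargc1b turned (0.0701 within slide 3). Members without such a P turned there too, as only 18 of 73 members were lower on that slide. With a mouse left out, Mrpl41 ranged from -0.0752 to 0.0262 (above 0 without control 1), Mrps18c from -0.0035 to 0.0589 (below 0 without nitrate 5) and the second probe of Mrps25 from -0.0227 to 0.212 (below 0 without nitrate 4).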

Other observations

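The array held a further 18 probes described as mitochondrial ribosomal proteins under other names, and 10 of them were detected. Besides Mrp63, counted above, 13 were predicted genes similar to members and 4 were unnamed transcripts. The predicted gene similar to Mrps18b (Gm13552) differed by -0.22 (SE 0.14), that similar to Mrpl12 (Gm15770) by -0.23 (SE 0.16), and those similar to Mrps36 (Gm10078 and Gm3544) by -0.13 (SE 0.17) and -0.16 (SE 0.16). The predicted gene similar to Mrps14 differed by -0.13 (SE 0.08), that similar to Mrpl18 (Gm13675) by 0.04 (SE 0.10) and that similar to Mrpl41 (Gm9481) by 0.00 (SE 0.08). A transcript described as Mrpl21, whose own probe was not above background, was detected and differed by 0.00 (SE 0.10). A transcript described as Mrps21 differed by -0.13 (SE 0.07). None of the 10 had a P under 0.05 (limma). How far probes of members and of such similar sequences read the same RNA was not tested.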
